A study of Sus scrofa with 30 samples.

Results

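The genes followed here belong to the pluripotency network and the epiblast, and were traced through pig oocyte maturation and preimplantation development. They are 10 in number: the transcription factor genes POU5F1, SOX2, NANOG, KLF4, KLF17, SALL4 and NR5A2, and the NODAL pathway genes NODAL, TDGF1 and LEFTY2. The members were taken by symbol from a list, and that list was chosen with earlier results of these data known. The 10 symbols matched 11 annotated loci among 19484 coding genes on chromosomes 1 to 18 and X, because 2 loci carry the name NANOG. ULI-NChIP-seq, a native chromatin immunoprecipitation for very few cells, had profiled H3K4me3 and H3K27me3, histone H3 trimethylated at lysine 4 or at lysine 27, in 30 libraries, 2 per group. The groups were siKDM5BC 4-cell embryos, grown from in vitro fertilised (IVF) zygotes injected with siRNA against the H3K4 demethylases KDM5B and KDM5C (H3K4me3 only), and untreated samples. The untreated H3K4me3 samples were germinal vesicle (GV) and metaphase II (MII) oocytes and IVF embryos at the 1-cell, 2-cell, 4-cell, 8-cell, morula and blastocyst stages. H3K27me3 was profiled in MII oocytes and at the 2-cell, 4-cell, 8-cell, morula and blastocyst stages. No library with a control siRNA is labelled, so the siKDM5BC embryos were set against untreated 4-cell embryos, and injection and knockdown cannot be told apart. Peaks do not measure transcripts, so these files cannot show how far KDM5B and KDM5C were depleted.

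POU5F1 (OCT4), SOX2 and NANOG form the core of the network that keeps epiblast cells pluripotent. KLF4, KLF17, SALL4 and NR5A2 are partner factors, and KLF17 marks the naive epiblast in human embryos. NODAL is a secreted ligand of the TGF-beta family, TDGF1 (CRIPTO) is its membrane co-receptor, and LEFTY2 is a secreted NODAL antagonist. H3K4me3 lies at active and poised promoters, whereas H3K27me3 is laid down by Polycomb repressive complex 2 and is found at silent developmental genes. The value used here is the number of base pairs (bp) covered by called peaks within 5 kb of a gene end, taking the end with more (5 kb on each side of it at most). The annotation used here gives no strand, and both ends were therefore treated alike. All coordinates are those of susScr11.

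POU5F1 lies on chromosome 7 (23564654 to 23570691), SOX2 on chromosome 13 (119668476 to 119669435) and SALL4 on chromosome 17 (53082610 to 53103023). KLF4 lies on chromosome 1 (248604817 to 248609574), KLF17 on chromosome 6 (167176834 to 167188418) and NR5A2, the longest of the loci with 139041 bp, on chromosome 10 (22727865 to 22866905). NODAL lies on chromosome 14 (73350358 to 73357064), TDGF1 on chromosome 13 (29537874 to 29544686) and LEFTY2 on chromosome 10 (13849052 to 13853438). One NANOG locus lies on chromosome 5 (62931642 to 62939086) between NANOGNB and the glucose transporter gene SLC2A3. The other, of 1159 bp, lies on chromosome 1 (169064134 to 169065292) inside the gene THSD4, and had no peak of either mark within 5 kb in any library. It was not tested at 5 kb, and reads that match both NANOG loci could have been assigned to either.

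H3K4me3 peaks covered 31.6 to 142 Mb in the libraries of the 8 stages and 164 and 179 Mb in the siKDM5BC libraries, and H3K27me3 peaks covered 1.28 to 109 Mb. Read totals are not in the peak lists, so depth is unknown and a covered length also depends on it. The lowest fold enrichment kept in a list was 2.70 and 2.86 in siKDM5BC embryos, 3.11 and 3.31 in untreated 4-cell embryos, and 2.60 to 3.17 in the other H3K4me3 lists. Peaks outside chromosomes 1 to 18 and X numbered 1246 and 1114 in the siKDM5BC lists, against 4 to 61 in every other list. Whether those lists were processed differently cannot be told apart from the siRNA treatment. Whole embryos were used, so more cells carrying a mark and more of it per cell cannot be told apart, and blastocysts hold trophectoderm as well as inner cell mass. The labels do not say that replicates came from separate collections, and the p-values therefore measure only the spread between these libraries.

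H3K4me3 lay within 5 kb of 7 of the 11 loci in all 18 H3K4me3 libraries, as it did for 56.3% of coding genes: POU5F1, SOX2, NANOG on chromosome 5, KLF4, KLF17, SALL4 and NR5A2. The 3 NODAL pathway genes had it in 12 (NODAL), 12 (TDGF1) and 17 (LEFTY2) of the libraries. Of the 10 loci tested, 8 differed across the 8 stages (limma, Benjamini-Hochberg adjusted over 18229 genes), beside 50.8% of all genes tested. The exceptions were NANOG on chromosome 5 (adjusted p = 0.171) and LEFTY2 (adjusted p = 0.533). The loci did not share a time course. POU5F1, SALL4 and TDGF1 had their widest coverage in morulae and blastocysts, KLF4 at the 8-cell stage and in morulae, SOX2 and KLF17 in morulae, NR5A2 in 1-cell and 2-cell embryos, and NODAL before the 8-cell stage.

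**Figure D1:**
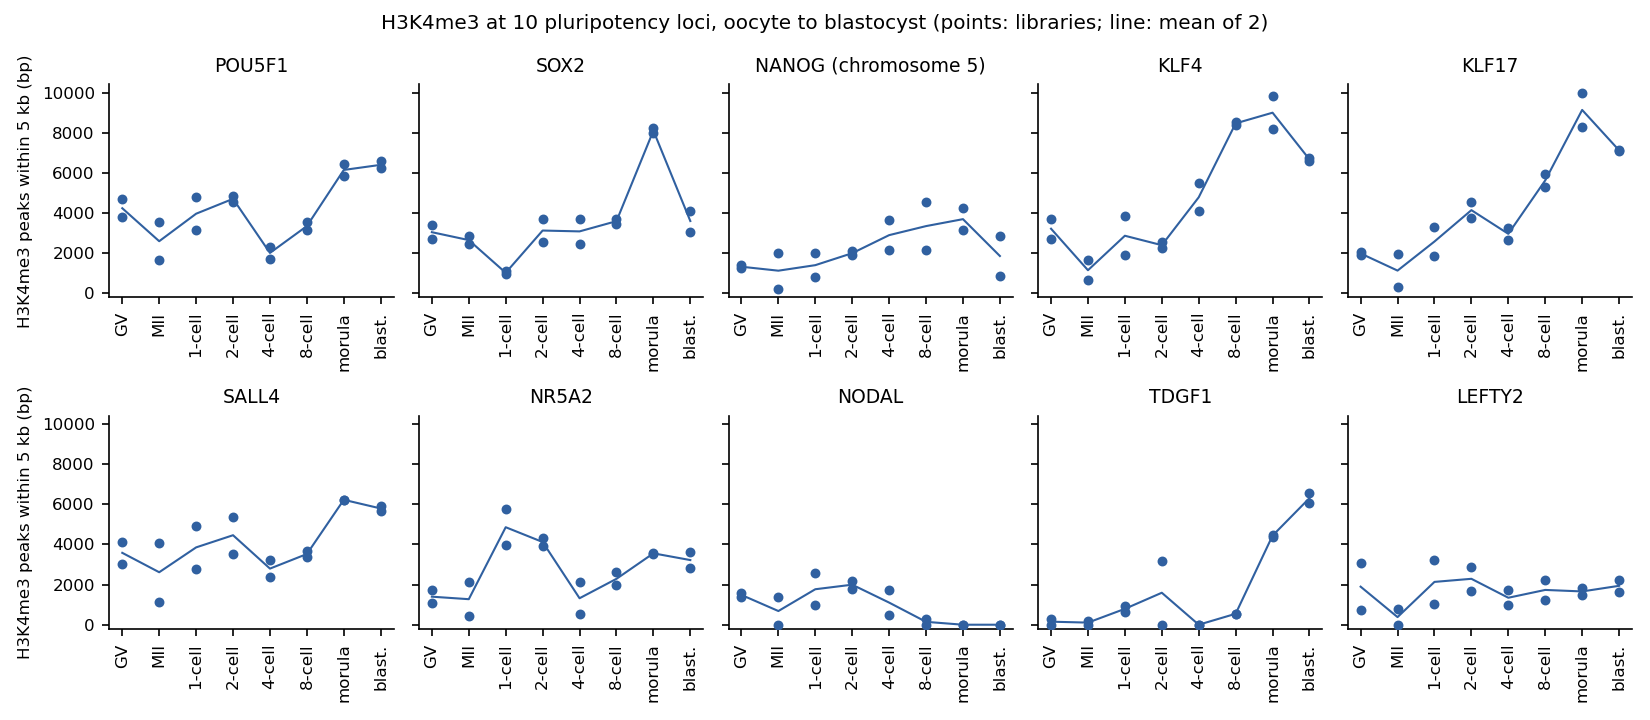
H3K4me3-covered bp within 5 kb of 10 loci (vertical axes) at 8 stages from GV oocyte to blastocyst (horizontal axes), with a point for each library and a line through the mean of 2. SOX2 stands at 7976 and 8224 bp in morulae against 3716 bp or less in every earlier library, and NODAL is at 0 bp in all 4 morula and blastocyst libraries.

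POU5F1 had 4671 and 3798 bp in GV oocytes, 1638 and 3545 bp in MII oocytes, 3147 and 4776 bp in 1-cell, 4845 and 4561 bp in 2-cell, 1704 and 2311 bp in 4-cell and 3142 and 3549 bp in 8-cell embryos, 5858 and 6427 bp in morulae and 6230 and 6564 bp in blastocysts. The 4 morula and blastocyst libraries were thus the highest of the 16, and the 4-cell libraries were the lowest with MII oocyte replicate 1 (adjusted p = 0.00161 across stages, 4389.5 bp between the highest and lowest stage means). With values scaled to the covered length of each library this difference did not pass (adjusted p = 0.451). The covered bases lay at the high-coordinate end of the gene. The end of the neighbouring gene TCF19 falls only in the window at the other end. The highest fold of any peak in either window was 9.51 to 12.1 in morulae and blastocysts and 3.14 to 4.06 in the 8 libraries from GV oocytes to 2-cell embryos.

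SOX2 had 3400 and 2682 bp in GV oocytes, 2454 and 2840 bp in MII oocytes, 944 and 1093 bp in 1-cell, 3677 and 2569 bp in 2-cell, 2469 and 3692 bp in 4-cell and 3466 and 3716 bp in 8-cell embryos, 7976 and 8224 bp in morulae and 4120 and 3074 bp in blastocysts. Both morula libraries stood above all 14 others, and both 1-cell libraries below them (adjusted p = 7.1e-05 across stages). In morulae 1 peak spanned 10513 bp (chromosome 13, 119666460 to 119676972) and 10488 bp (119666212 to 119676699), reaching past the high-coordinate end of the gene. In blastocysts the widest peak was 2757 and 2708 bp, and in 8-cell embryos 2772 and 2783 bp. The blastocyst peaks were narrower but not weaker, with a highest fold of 9.17 and 10.2 in blastocysts, against 7.49 and 6.95 in morulae.

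NANOG on chromosome 5 had 1395 and 1245 bp in GV oocytes, 234 and 2011 bp in MII oocytes, 784 and 2012 bp in 1-cell, 2100 and 1889 bp in 2-cell, 3628 and 2160 bp in 4-cell and 4553 and 2136 bp in 8-cell embryos, 4233 and 3148 bp in morulae and 2875 and 833 bp in blastocysts. Replicates differed widely, and all libraries up to the 2-cell stage lay below all 4-cell, 8-cell and morula libraries, while blastocysts overlapped with both sets. Its highest fold stayed at 3.04 to 4.50 at all 8 stages. With values scaled to covered length the stages differed (adjusted p = 0.0102), beside 55.8% of genes.

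KLF4, a factor used with POU5F1 and SOX2 to reprogram somatic cells, had 3.71 and 2.72 kb in GV oocytes, 649 and 1643 bp in MII oocytes, 1898 and 3829 bp in 1-cell, 2547 and 2241 bp in 2-cell, 5487 and 4073 bp in 4-cell and 8383 and 8543 bp in 8-cell embryos, 8160 and 9830 bp in morulae and 6743 and 6588 bp in blastocysts. All 8 libraries from the 4-cell stage on lay above all 8 earlier ones (adjusted p = 5.2e-05 across stages). The whole gene of 4758 bp was covered in both morula and both blastocyst libraries. In MII oocytes 0 and 356 bp of it were covered.

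KLF17 had 1914 and 2049 bp in GV oocytes, 288 and 1966 bp in MII oocytes, 1875 and 3277 bp in 1-cell, 4525 and 3754 bp in 2-cell, 3268 and 2650 bp in 4-cell and 5279 and 5964 bp in 8-cell embryos, the whole window in replicate 1 and 8264 bp in replicate 2 in morulae and 7098 and 7143 bp in blastocysts. From the 8-cell stage on, every library lay above every earlier one, with morulae highest (adjusted p = 5.38e-05). In morula replicate 1 a peak of 20138 bp (chromosome 6, 167170221 to 167190358) contained the gene and filled the window. The widest peak was 10675 bp in morula replicate 2, and 11624 and 11130 bp in blastocysts. Up to and including the 8-cell stage, no peak at KLF17 was wider than 5642 bp.

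SALL4, a zinc finger factor that works with POU5F1, had 4132 and 3031 bp in GV oocytes, 1152 and 4078 bp in MII oocytes, 2769 and 4937 bp in 1-cell, 5385 and 3534 bp in 2-cell, 3223 and 2369 bp in 4-cell and 3680 and 3366 bp in 8-cell embryos, 6229 and 6220 bp in morulae and 5914 and 5670 bp in blastocysts. The 4 morula and blastocyst libraries were the highest (adjusted p = 0.0433 across stages). This call held in 7 of 16 repeats that left out a library, those without GV oocyte replicate 1 or any MII oocyte, 1-cell or 2-cell library, and the highest adjusted p was 0.118 in the others. It was also lost with peaks under 3 kb apart joined (adjusted p = 0.618) and on the log2 scale (0.142). The mark covered 12795 and 12925 bp of the gene itself in blastocysts, against 2181 and 2775 bp in 8-cell embryos.

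NR5A2, an orphan nuclear receptor linked to POU5F1 expression in the mouse epiblast, had its widest coverage early. It had 1724 and 1070 bp in GV oocytes, 423 and 2121 bp in MII oocytes, 3972 and 5744 bp in 1-cell, 4320 and 3923 bp in 2-cell, 2120 and 518 bp in 4-cell and 1969 and 2605 bp in 8-cell embryos, 3589 and 3525 bp in morulae and 2823 and 3619 bp in blastocysts. The 1-cell and 2-cell libraries were the highest of the 16 (adjusted p = 0.00785 across stages). The call was lost with windows of 2.5 kb (adjusted p = 0.206) and with peaks of fold 3.5 or more (adjusted p = 0.521). Over the whole gene, peaks covered 36619 and 30542 bp in 2-cell embryos but 12992 and 12188 bp in blastocysts. Early coverage was wide and weak, with a highest fold of 3.20 to 4.13 in 1-cell and 2-cell embryos. In the 6 libraries from the 8-cell stage on, 1 peak of 10218 to 12792 bp stood inside the gene, and the highest fold was 5.55 to 7.45. Peaks this wide were not confined to those libraries. The widest peak at NR5A2 was 13.279 kb in 2-cell replicate 2 and 11.419 and 13.589 kb in siKDM5BC embryos.

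NODAL had 1366 and 1601 bp in GV oocytes, 0 and 1364 bp in MII oocytes, 959 and 2576 bp in 1-cell, 1803 and 2186 bp in 2-cell, 1728 and 476 bp in 4-cell and 0 and 287 bp in 8-cell embryos, and 0 bp in all 4 morula and blastocyst libraries. The call across stages (adjusted p = 0.0493) held in 6 of 16 repeats that left out a library, those without an MII oocyte, 1-cell or 4-cell library, and the highest adjusted p was 0.105 in the others. It was also lost at 50 kb (adjusted p = 0.0662) and with −log10 q of 3 or more (0.791). All of this coverage lay beyond the high-coordinate end of NODAL, and 0 bp of the gene itself were covered in any of the 18 libraries. The translation repressor gene EIF4EBP2 overlaps the low-coordinate end and ends inside NODAL, so its end also falls in the window at the high-coordinate end. The covered bases there were nearer to NODAL than to any other coding gene. Within 50 kb, where PALD1 also has an end, all 18 libraries had a peak.

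TDGF1 was nearly bare before the morula stage, apart from 2-cell replicate 1. It had 302 and 0 bp in GV oocytes, 210 and 0 bp in MII oocytes, 652 and 930 bp in 1-cell, 3186 and 0 bp in 2-cell, 0 and 0 bp in 4-cell and 535 and 555 bp in 8-cell embryos, 4390 and 4490 bp in morulae and 6549 and 6069 bp in blastocysts. The 4 latest libraries stood above the other 12 (adjusted p = 0.000219 across stages). The peak widened with little change in strength, at a highest fold of 5.03 and 4.08 in morulae and 4.68 and 4.32 in blastocysts. An unmarked locus can also be a peak that the caller missed.

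LEFTY2 had 3058 and 733 bp in GV oocytes, 0 and 759 bp in MII oocytes, 1050 and 3217 bp in 1-cell, 2882 and 1693 bp in 2-cell, 1721 and 967 bp in 4-cell and 1251 and 2216 bp in 8-cell embryos, 1812 and 1504 bp in morulae and 2241 and 1636 bp in blastocysts. These values overlapped at nearly all stages. They include peaks outside the gene, which a window of 5 kb does not assign to LEFTY2 alone. Within the gene itself, a count chosen after the values were seen, peaks covered 279 and 988 bp in 2-cell embryos and 822 and 0 bp in 4-cell embryos. None of the gene was covered in the 6 libraries of 8-cell embryos, morulae and blastocysts.

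Among neighbouring stages, coverage at POU5F1 and NR5A2 was lower in 4-cell than in 2-cell embryos, the 4-cell stage being the time of major genome activation in the pig. The difference of 4-cell minus 2-cell embryos was −2695.5 bp (SE 649, adjusted p = 0.0255) at POU5F1 and −2802.5 bp (SE 740, adjusted p = 0.0361) at NR5A2, beside 9.96% of genes lower and 0.291% higher. POU5F1 lost this call without any of the 4 libraries (adjusted p = 0.0576 to 0.125), and NR5A2 lost it in 3 of the 4 repeats (0.0724 to 0.297, kept without 4-cell replicate 1). TDGF1 gave −1593 bp (adjusted p = 0.187), and −3186 bp (adjusted p = 0.00254) without 2-cell replicate 2. The summed peak length of 4-cell libraries was 0.373 of that of 2-cell libraries (−1.42 on the log2 scale), and scaling to covered length turned POU5F1 to 1210.2 bp (adjusted p = 0.422) while NR5A2 stayed at −835 bp (adjusted p = 0.450). Keeping only peaks with −log10 q of 3 or more turned POU5F1 to 2007.5 bp (adjusted p = 0.00155) and NR5A2 to 1306.5 bp (adjusted p = 0.246), beside 17.4% of genes higher and 0.0124% lower. KLF4 went the other way, with 2386 bp (SE 728) that did not pass (adjusted p = 0.0596).

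From the 8-cell stage to the morula, a contrast added after the values were seen, H3K4me3 rose at 4 of 10 loci, beside 18.4% of genes higher and 1.29% lower. The difference of morulae minus 8-cell embryos was 4509 bp at SOX2 (SE 527, adjusted p = 0.000175), 3895 bp at TDGF1 (SE 730, adjusted p = 0.00336), 3511 bp at KLF17 (SE 692, adjusted p = 0.00448) and 2797 bp at POU5F1 (SE 649, adjusted p = 0.0112). POU5F1 lost the call without 8-cell replicate 1 (adjusted p = 0.0772) or morula replicate 2 (0.0872), and KLF17 without morula replicate 1 (0.0525). Morula libraries covered 1.81 times the length of 8-cell libraries. Scaled to it, TDGF1 kept its rise (2688.5 bp, adjusted p = 0.0278, beside 3.05% of genes higher and 3.79% lower), and KLF4 passed as lower. SOX2 and POU5F1 did not pass when scaled (adjusted p = 0.812 and 1), and KLF17 turned to −799 bp (adjusted p = 0.742). From morula to blastocyst, likewise added, SOX2 was the 1 locus of 10 that passed, at −4503 bp (SE 527, adjusted p = 0.00136), beside 0.889% of genes lower and 1.29% higher. The SOX2 call held without each of the 4 libraries, but not with values scaled to covered length (−3140.7 bp, adjusted p = 0.778).

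Blastocysts minus MII oocytes gave higher coverage at 5 of 10 loci and lower coverage at none, beside 37.1% of genes higher and 3.57% lower. The differences were 6204 bp at TDGF1 (SE 730, adjusted p = 7.21e-05), 5993.5 bp at KLF17 (SE 692, adjusted p = 6.35e-05), 5519.5 bp at KLF4 (SE 728, adjusted p = 0.000151), 3805.5 bp at POU5F1 (SE 649, adjusted p = 0.000786) and 3177 bp at SALL4 (SE 944, adjusted p = 0.0189). SOX2, whose peak had narrowed again, differed by 950 bp (adjusted p = 0.173). Scaled to covered length, POU5F1 (2481.2 bp, adjusted p = 0.104) and SALL4 (2076.5 bp, adjusted p = 0.0753) did not pass. SALL4 lost the call without MII oocyte replicate 1 (1714 bp, adjusted p = 0.191) or either blastocyst library (0.0870 and 0.0686). NR5A2, at 1949 bp (adjusted p = 0.0541), passed without MII oocyte replicate 2 (2798 bp, adjusted p = 0.0257).

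The siKDM5BC embryos were made to study the functions of KDM5B and KDM5C in early pig development. H3K4me3 was higher in siKDM5BC than in untreated 4-cell embryos at 6 of 10 loci, POU5F1, SOX2, KLF17, SALL4, NR5A2 and LEFTY2, and lower at none, beside 35.5% of genes higher and 0.0439% lower. The directions were relative to peaks as called: siKDM5BC libraries covered 3.90 times the length of untreated ones (1.96 on the log2 scale), and after scaling to covered length POU5F1, SOX2, KLF17, SALL4 and LEFTY2 turned negative (−845 to −4157 bp), of which KLF17 and SALL4 passed as lower together with KLF4 and NANOG on chromosome 5, beside 32.7% of genes lower and 1.78% higher. Scaling moved the median difference over all genes tested from 1412.5 bp to −1257.5 bp.

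POU5F1 had 6099 and 5900 bp in siKDM5BC embryos, against 1704 and 2311 bp in untreated 4-cell embryos, a difference of 3992 bp (SE 649, adjusted p = 0.00146). The siKDM5BC values were close to those of blastocysts, although the highest fold was 4.56 and 4.00 in siKDM5BC embryos and 10.5 and 10.9 in blastocysts. SOX2 had 6660 and 7134 bp in siKDM5BC embryos, against 2469 and 3692 bp in untreated ones (3816.5 bp, SE 527, adjusted p = 0.000701). NR5A2 had 4862 and 5765 bp in siKDM5BC embryos, against 2120 and 518 bp in untreated ones (3994.5 bp, SE 740, adjusted p = 0.00269). These 3 loci kept their call without each of the 4 libraries. The untreated NR5A2 values lay far apart, so that the size of its gain relative to the untreated level is poorly fixed. Over the whole NR5A2 gene, peaks covered 45192 and 55583 bp in siKDM5BC embryos, against 13092 and 8819 bp in untreated ones.

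SALL4 had 6411 and 6095 bp in siKDM5BC embryos, against 3223 and 2369 bp in untreated ones (3457 bp, SE 944, adjusted p = 0.0162). KLF17 had 5555 and 5105 bp in siKDM5BC embryos, against 3268 and 2650 bp in untreated ones (2371 bp, SE 692, adjusted p = 0.0217). LEFTY2 had 4342 and 3383 bp in siKDM5BC embryos, against 1721 and 967 bp in untreated ones (2518.5 bp, SE 848, adjusted p = 0.0386). The calls at these 3 loci were fragile. All 3 were lost without untreated 4-cell replicate 2 (adjusted p = 0.121 to 0.212) and without siKDM5BC replicate 1 (0.0809 to 0.203), KLF17 and LEFTY2 without siKDM5BC replicate 2 (0.0513 and 0.0585), and LEFTY2 without untreated 4-cell replicate 1 (0.0627). Within the LEFTY2 gene itself, peaks covered 1304 and 2087 bp in siKDM5BC embryos, against 822 and 0 bp in untreated ones, so that part of the window's coverage lay outside the gene in both groups.

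**Figure D2:**
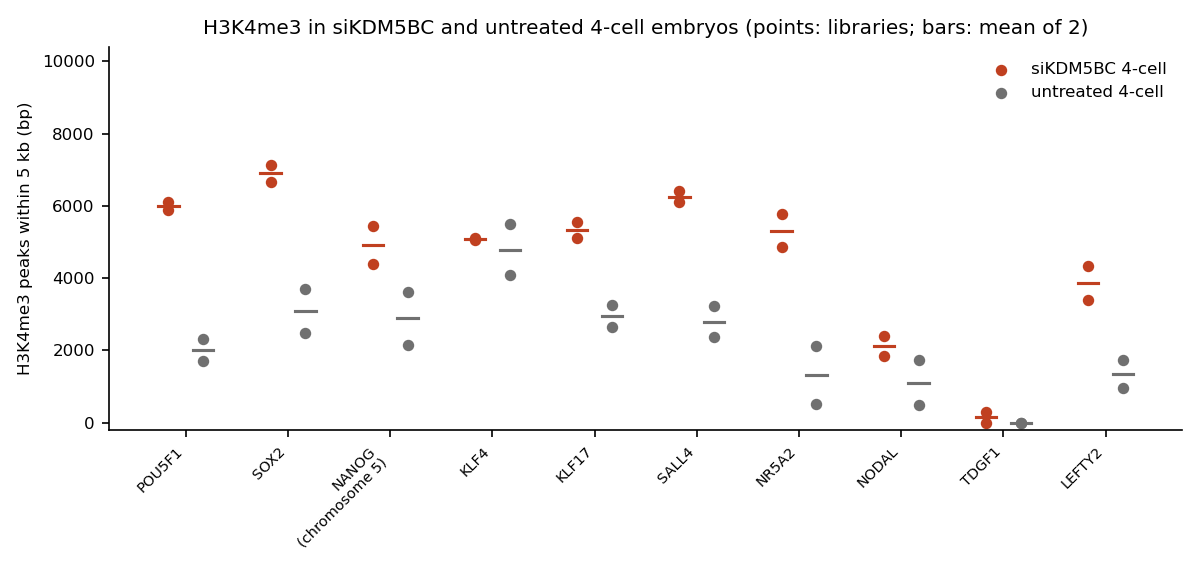
H3K4me3-covered bp within 5 kb (vertical axis) of 10 loci in siKDM5BC (red, left) and untreated (grey, right) 4-cell embryos, with points for libraries and bars for the mean of 2. The groups are far apart at POU5F1 (6099 and 5900 bp against 1704 and 2311 bp), while KLF4 and TDGF1 lie side by side. Scaled to the covered length of each library, POU5F1 turns to −1732.5 bp.

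The 4 loci that did not pass fell into different kinds. KLF4 had 5100 and 5054 bp in siKDM5BC embryos, against 5487 and 4073 bp in untreated ones (297 bp, SE 728, adjusted p = 0.779), and its 50 kb window also did not pass (3314 bp, SE 3257, adjusted p = 0.401). TDGF1 was close to bare in both, with 281 and 0 bp in siKDM5BC embryos and no peak in either untreated library (140.5 bp, SE 730, adjusted p = 0.918). NODAL had 2385 and 1854 bp in siKDM5BC embryos, against 1728 and 476 bp in untreated ones (1017.5 bp, SE 595, adjusted p = 0.197). Its 50 kb window passed, with a mean of 11811 bp in siKDM5BC embryos against 4052 bp in untreated ones (adjusted p = 0.0379). NANOG on chromosome 5 had 4403 and 5456 bp in siKDM5BC embryos, against 3628 and 2160 bp in untreated ones (2035.5 bp, SE 950, adjusted p = 0.113). Its surroundings did pass: within 50 kb, 41888 and 39916 bp were covered in siKDM5BC embryos, against 8277 and 4351 bp in untreated ones (34588 bp, SE 3720, adjusted p = 0.000219). At 50 kb, 8 of 11 loci were higher in siKDM5BC embryos, beside 60.4% of genes higher and 0.0414% lower.

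The shape of the peaks showed where the added coverage lay. At SOX2 the widest peak was 6.05 and 6.55 kb in siKDM5BC embryos and 2.47 and 2.74 kb in untreated 4-cell embryos, the added part lying mainly beyond the high-coordinate end, on the side where the morula peak extended further. At KLF4 the widest peak was 5100 and 4783 bp in siKDM5BC embryos and 4550 and 4073 bp in untreated ones, and it reached 8214 and 11658 bp in morulae.

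**Figure D3:**
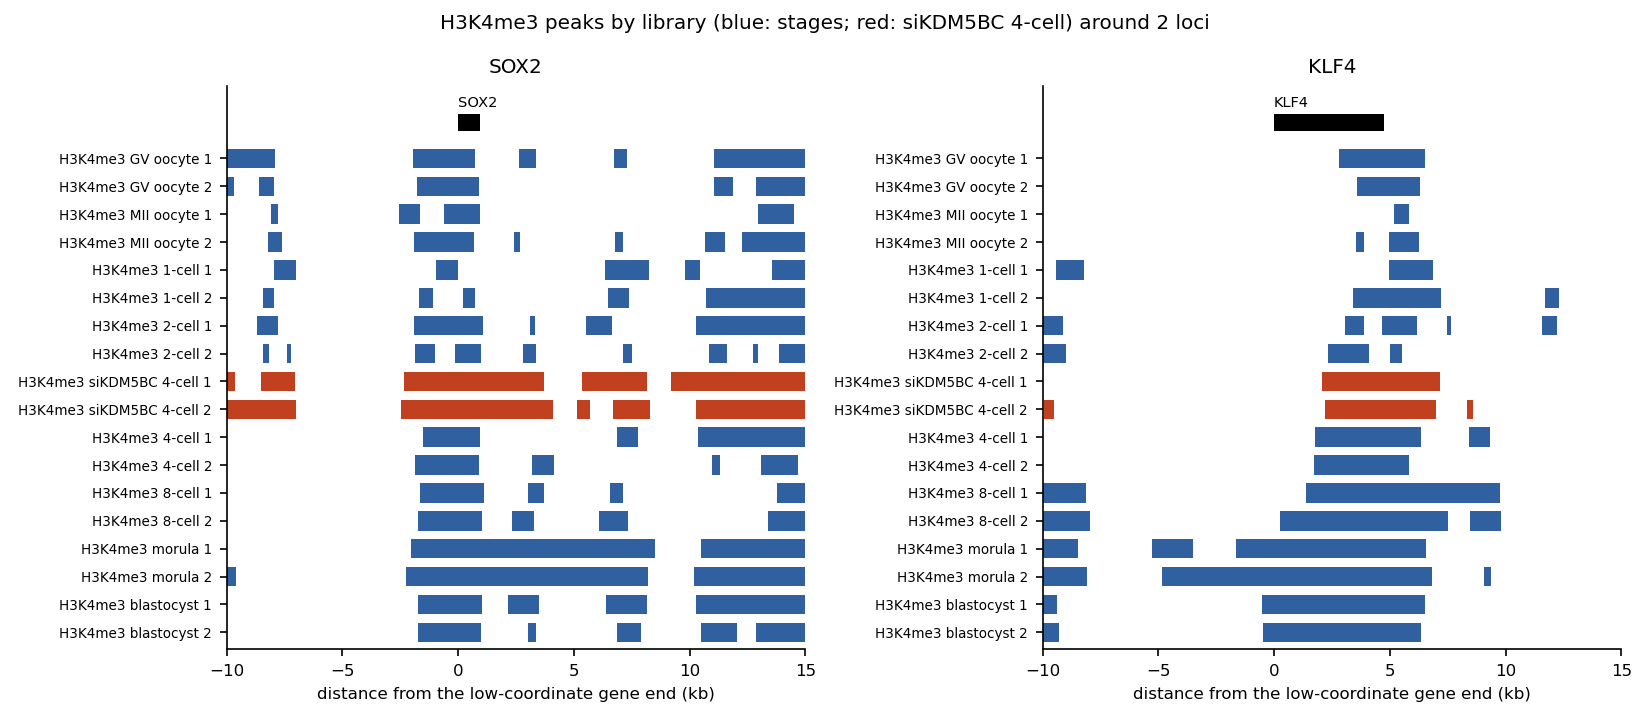
H3K4me3 peaks of each of 18 libraries (rows; red, siKDM5BC 4-cell; blue, untreated stages) against distance in kb from the low-coordinate end of SOX2 (left) and KLF4 (right), with coding genes as boxes on top. The SOX2 peak is widest in morulae (10513 and 10488 bp) and wider in siKDM5BC than in untreated 4-cell embryos, while the KLF4 peaks of those 2 groups have similar extents (5100 and 4783 bp against 4550 and 4073 bp).

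H3K27me3 peaks were found near 7 of the 11 loci. No H3K27me3 peak lay within 5 kb of POU5F1, SOX2, LEFTY2 or the NANOG locus on chromosome 1 in any of the 12 libraries, 4 of 11 loci, as for 27.9% of coding genes. Another 3 loci had a peak in 1 library each: NANOG on chromosome 5 (1257 bp in MII oocyte replicate 1), SALL4 (764 bp in blastocyst replicate 2) and TDGF1 (1144 bp in 4-cell replicate 2). In both libraries of a stage it was present at 3 loci in blastocysts (32.5% of coding genes), 2 in morulae (7.23%) and 2 in MII oocytes (18.3%). At the 2-cell, 4-cell and 8-cell stages it was present at none, beside 0.472%, 9.97% and 3.72% of coding genes. The remaining 4 loci could be tested, and of these NR5A2 and KLF17 changed across the 6 stages, beside 55.0% of 10519 genes tested. Since the loci tested were those with peaks in at least 2 libraries, that count describes them and not the gene set.

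NR5A2 had 2086 and 2160 bp of H3K27me3 in MII oocytes, 0 bp in all 6 libraries of 2-cell, 4-cell and 8-cell embryos, 1375 and 1342 bp in morulae and 3558 and 3705 bp in blastocysts (adjusted p = 4.31e-07 across stages). Replicates lay close together and the 3 marked stages did not overlap, while the 6 libraries at 0 bp added no spread to the test. The difference of 2-cell embryos minus MII oocytes was −2123 bp (SE 88.0, adjusted p = 1.77e-06), and that of blastocysts minus morulae was 2273 bp (SE 88.0, adjusted p = 2.15e-06). KLF17 had 2044 and 1632 bp in MII oocytes, 0 bp at the 2-cell and 4-cell stages, 0 and 394 bp at the 8-cell stage, 111 and 398 bp in morulae and 1379 and 2321 bp in blastocysts (adjusted p = 0.00224 across stages). It gave −1838 bp for 2-cell embryos minus MII oocytes (SE 307, adjusted p = 0.00309) and 1595.5 bp for blastocysts minus morulae (SE 307, adjusted p = 0.00434). In these 2 contrasts 23.0% of genes were lower with 0 higher, and 43.5% were higher with 0.0475% lower. The 2-cell libraries covered a mean of 1.64 Mb, against 66.7 Mb in MII oocytes (ratio 0.0247, −5.34 on the log2 scale). Their lists thus held few peaks at any gene, which limits every 2-cell minus MII oocyte difference, at 5 kb and at 50 kb. At NR5A2 and KLF17 the rise to the blastocyst turned with scaling to covered length, which was 7.94 times greater in blastocysts than in morulae, to −2752.6 bp (adjusted p = 0.000995) and −36.0 bp (adjusted p = 1), beside 5.59% of genes lower and 14.1% higher. With only peaks of −log10 q of 3 or more kept, neither locus had an H3K27me3 peak in 2 libraries. The H3K27me3 calls at NR5A2 and KLF17 thus rest on peaks of lower significance.

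KLF4 had 746 bp in 8-cell replicate 2 and 1351 bp in blastocyst replicate 1, and none elsewhere (adjusted p = 0.577 across stages). Without blastocyst replicate 2 it passed in blastocysts minus morulae (1351 bp), a result that rests on blastocyst replicate 1 alone. NODAL had 1684 bp in 4-cell replicate 2 and 719 and 1176 bp in blastocysts (adjusted p = 0.260 across stages). Across stages NODAL passed only in the repeats without 4-cell replicate 1 or replicate 2, the pair that disagreed at this locus. Without replicate 2, only the blastocyst libraries had a peak, and NODAL entered that test through the stage where it was high. Neither repeat is therefore support for a change.

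Within 50 kb, H3K27me3 flanked loci that were free of it nearby. SOX2 had 6506 and 10929 bp in blastocysts, against 749 and 1217 bp in morulae (7734.5 bp, SE 1178, adjusted p = 0.00101). LEFTY2 had 5546 and 10677 bp in blastocysts, against 0 and 883 bp in morulae (7670 bp, SE 1367, adjusted p = 0.00215). At 50 kb LEFTY2 had a peak in 3 of 12 libraries, both blastocyst libraries among them. It thus entered the test through the stage where it was high and could hardly have come out lower there, so its call describes the locus only. With this window KLF4, KLF17, NR5A2 and NANOG on chromosome 5 also rose, making 6 of 11 loci, beside 60.7% of 18861 genes tested at 50 kb. POU5F1 did not pass in blastocysts minus morulae (adjusted p = 0.205). It had 7009 and 5244 bp in MII oocytes, 282 and 0 bp in 2-cell embryos (−5985.5 bp for 2-cell embryos minus MII oocytes, SE 944, adjusted p = 0.00198, beside 24.5% of genes lower, with NR5A2, KLF17 and KLF4 lower as well), and 0 and 2984 bp in blastocysts. Up to 6 other coding genes have an end within 50 kb of a locus, the most at POU5F1, so wide windows do not belong to 1 gene alone.

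**Figure D4:**
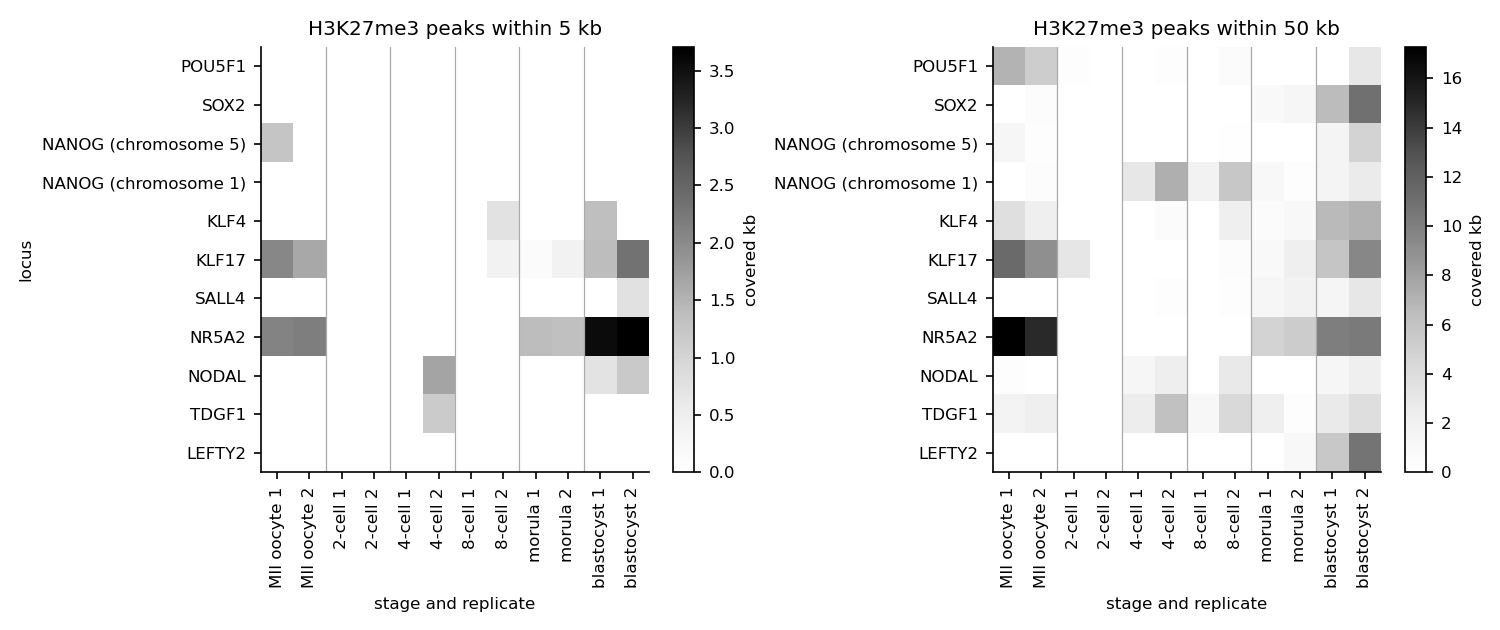
H3K27me3-covered kb within 5 kb (left) and 50 kb (right) of 11 loci (rows) in 12 libraries (columns, MII oocyte to blastocyst), darker for more. NR5A2 and KLF17 are marked in both MII oocyte and both blastocyst libraries, and SOX2 and LEFTY2 only in the wide window, at 6506 and 10929 bp and at 5546 and 10677 bp in blastocysts.

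Both marks lay on the same bases in all 4 libraries of a stage at NR5A2 and KLF17, and only in blastocysts. There, 1248 bp at NR5A2 and 862 bp at KLF17 within 5 kb were covered in both H3K4me3 and both H3K27me3 libraries, and 0 bp at the other 9 loci or at any locus at the other 5 stages. In morulae the marks overlapped in all 4 pairs of an H3K4me3 and an H3K27me3 library at KLF17 and in 2 of 4 pairs at NR5A2, though not on shared bases throughout. They overlapped in 2 of 4 pairs at KLF4 in 8-cell embryos and blastocysts, at SALL4 in blastocysts, at KLF17 in 8-cell embryos and MII oocytes, and at NANOG on chromosome 5 and NR5A2 in MII oocytes. At NR5A2 this was part of the 3558 and 3705 bp that H3K27me3 covered there in blastocysts. The share of all coding genes with such shared bases was not counted, so these counts have no background. H3K27me3 peaks covered the most in blastocysts, a mean of 96.8 Mb, against 66.7 Mb in MII oocytes and 12.2 Mb in morulae. Whether the overlap follows from that length was not tested. Libraries of whole embryos do not show whether the marks share a cell.

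**Figure D5:**
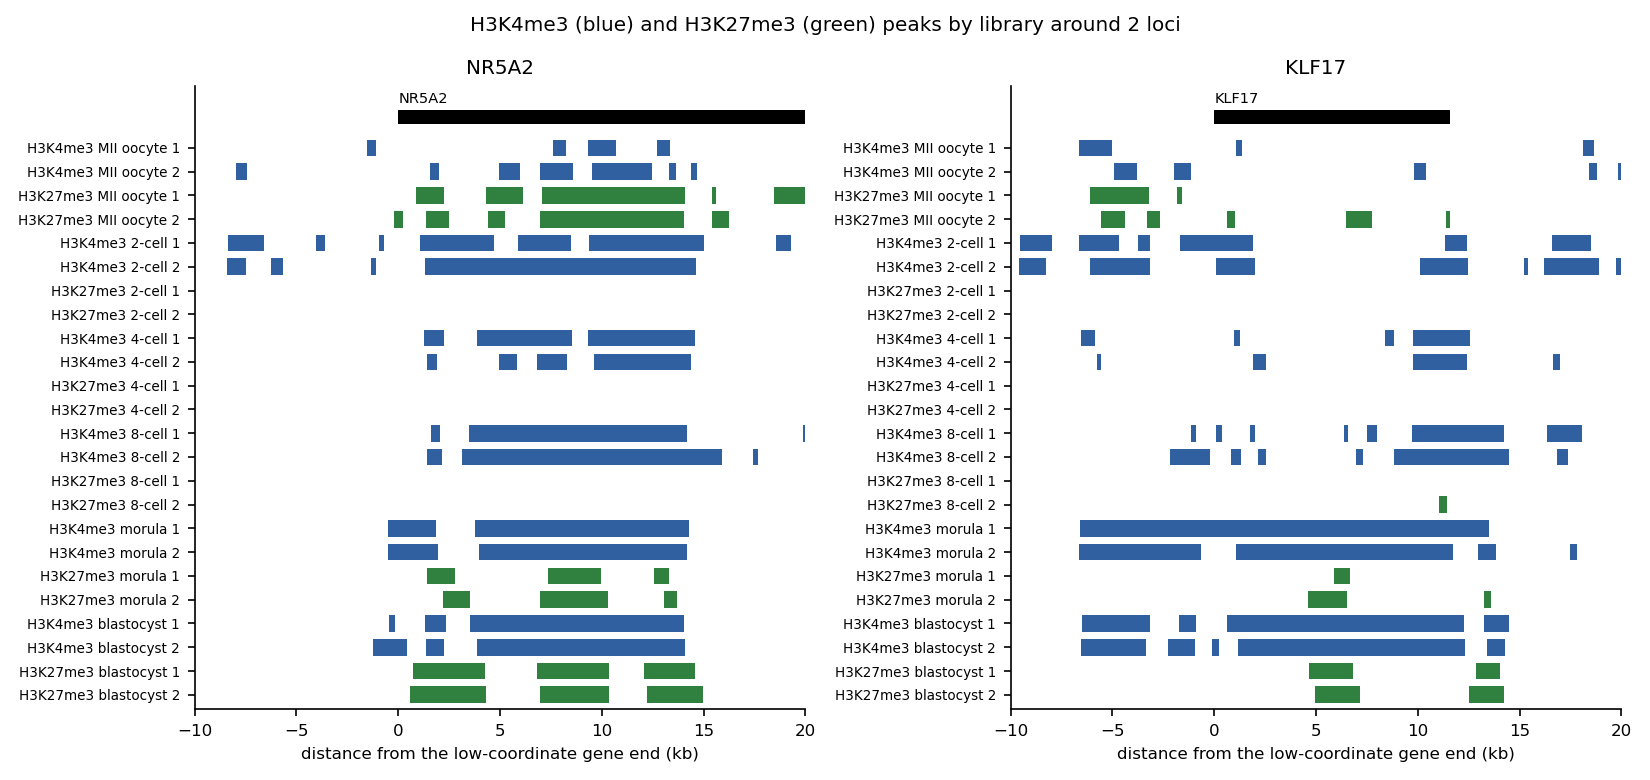
H3K4me3 (blue) and H3K27me3 (green) peaks of each library at 6 stages (rows) against distance in kb from the low-coordinate end of NR5A2 (left) and KLF17 (right). H3K27me3 is present in MII oocytes, absent at NR5A2 from 2-cell to 8-cell embryos while H3K4me3 remains, and present again in morulae and blastocysts (1375 and 1342 bp, then 3558 and 3705 bp within 5 kb of NR5A2).

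Related genes were counted from lists that had been chosen with earlier results of these data known. Of 24 other core and naive pluripotency factors, 14 had more H3K4me3 in siKDM5BC than in untreated 4-cell embryos and none less, beside 35.5% of all genes higher, with a median difference of 2696.8 bp against 1412.5 bp over all genes tested. The median was 3021.5, 1699.5 and 2300.5 bp in the 3 lists that follow, in their order. UTF1, a chromatin factor of embryonic stem cells, had its whole window covered in both siKDM5BC libraries, against 3141 and 1723 bp in untreated 4-cell embryos (adjusted p = 0.0025). DPPA4 had 6538 and 5929 bp in siKDM5BC embryos, against 1505 and 1241 bp in untreated ones (adjusted p = 0.000745). Of 10 epiblast and primed-state genes 5 were higher, among them FGF4, a growth factor of the epiblast (6568 and 6221 bp against 2715 and 2242 bp, adjusted p = 0.00643). Of 15 NODAL and activin pathway genes 5 were higher, among them the proprotein convertase FURIN (6033 and 5313 bp against 1328 and 1213 bp, adjusted p = 0.0356). Of 8 LIF and STAT3 pathway genes 4 were higher, among them STAT3 (5044 and 4078 bp against 1861 and 776 bp, adjusted p = 0.00358).

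In blastocysts minus MII oocytes, 12 of the 24 core and naive factors had more H3K4me3 and none less (37.1% of all genes higher, 3.57% lower), with DPPA3, KLF5, SOX15 and TBX3 the largest (5501.5 to 7449 bp). In the same contrast 7 of 15 NODAL and activin pathway genes were higher, led by the receptor gene ACVR2B (5148.5 bp, adjusted p = 8.54e-05), and 4 of 8 LIF and STAT3 genes, led by IL6 (6363 bp, adjusted p = 7.87e-06). Of 10 epiblast and primed-state genes, OTX2 was higher (2709.5 bp, adjusted p = 0.0331) and FGF4 lower (−2906 bp, adjusted p = 0.0199). In morulae minus 8-cell embryos, 9 of 24 core and naive factors were higher, beside 18.4% of all genes, and ESRRB lower (−3064.5 bp, adjusted p = 0.00218). Between 4-cell and 2-cell embryos 4 of the 24 were lower at the 4-cell stage, beside 9.96% of all genes (UTF1, ZSCAN10, GBX2 and LIN28A) and DPPA2 was higher, while none of the other 3 lists had a call.

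H3K27me3 was counted over those list members that had peaks in at least 2 libraries. Between blastocysts and morulae it was higher in blastocysts at all 9 epiblast and primed-state genes tested, at 9 of 15 core and naive factors, at 1 of 4 LIF and STAT3 genes and at none of 6 NODAL and activin pathway genes, beside 43.5% of all genes tested. The median difference was 4796.5, 1608, 541.75 and 458.5 bp in these lists, against 616 bp over all genes tested. Genes with H3K27me3 peaks only in blastocysts entered these counts through that stage and could only be higher there. FGF2 (763 and 843 bp) and DPPA5 (1884 and 2850 bp) were of this kind. The counts therefore describe the genes tested and not the lists. OTX2, a factor of primed epiblast, had 4677 and 4754 bp in blastocysts and no peak in morulae (adjusted p = 1.87e-07). ZIC2 had 5500 and 6896 bp in blastocysts, against 254 and 198 bp in morulae (adjusted p = 4.88e-05). In 2-cell embryos minus MII oocytes it was lower at 5 of 9 epiblast genes, 6 of 15 core and naive factors, 2 of 6 NODAL pathway genes and 1 of 4 LIF and STAT3 genes, beside 23.0% of all genes tested. UTF1 had no peak in 2-cell embryos, against 7358 and 7397 bp in MII oocytes, and none in blastocysts.

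Marker genes of other cells were counted in the siKDM5BC contrast too, again beside 35.5% of all genes higher. Of 8 trophectoderm markers 6 had more H3K4me3 in siKDM5BC embryos, and the summed coverage of the list was 55474 to 56304 bp in siKDM5BC embryos and 26145 to 32219 bp in untreated ones. The counts were 2 of 5 for hypoblast (35214 to 36370 bp against 19912 to 27137 bp), 3 of 9 for oocyte (16025 to 17468 bp against 3881 to 7701 bp), 1 of 7 for cumulus and granulosa (17730 to 19992 bp against 8168 to 10780 bp) and 2 of 6 for sperm markers (9010 to 9999 bp against 1055 to 1508 bp). The median difference was 3356.8 bp for trophectoderm, 2664 bp for hypoblast, 346.5 bp for oocyte, 675.5 bp for cumulus and granulosa and 145 bp for sperm markers, against 1412.5 bp over all genes tested. In blastocysts minus MII oocytes 5 of 8 trophectoderm markers were higher, beside 37.1% of all genes higher and 3.57% lower. In that contrast 1 of 5 hypoblast, 2 of 9 oocyte and 3 of 6 sperm markers were higher, with 1 lower in each list. The 3 sperm markers, PRM1, PRM2 and TNP2, each had 1668 bp in blastocyst replicate 2. In replicate 1 PRM1 and PRM2 both had 2702 bp. Equal values like these come from windows that hold the same peaks, so the 3 do not count as separate gains. None of 7 cumulus and granulosa markers was called. Peaks at marker genes do not count cells, and the part of other cell types in these results was not tested.

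As a description over the 18 H3K4me3 libraries, which share their depth differences, the 45 pairs among the 10 marked loci had Pearson correlations from −0.525 (NODAL with TDGF1) to 0.922, with a median of 0.503. Outside the set, SIRT3 (0.953), PSMD13 (0.947), ADSS (0.942), NOCT (0.940) and PHAX (0.938) were most like the mean of the 10, among 17231 genes compared. SIRT3 and PSMD13 are neighbours on chromosome 2. The gene most like POU5F1 was TEC (0.947), like SOX2 CH25H (0.878), like NANOG on chromosome 5 C6H1orf228 (0.875), like KLF4 CDV3 (0.960) and like KLF17 LOC110256677 (0.937). For SALL4 it was FOS (0.940), for NR5A2 CENPH (0.954), for NODAL POU3F1 (0.951), for TDGF1 TLR1 (0.974) and for LEFTY2 SAMD1 (0.955).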

How the data were processed

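Each of the 30 libraries has 1 deposited list of broad peaks. Per the submitters' processing notes, Bowtie2 2.4.1, MACS2 and the build susScr11 were used; the calling threshold, input and read filters are not given in the sources used here. Each deposited peak has a fold enrichment (a ratio), a −log10 p and a −log10 q; these are the authors' values, used only to describe and filter peaks. The lists hold no read totals, so no depth, interval or floor is given.

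Covered bp per gene and library were computed with Python 3.11.15 and tested with limma 3.58.1 in R 4.3.3, over all coding genes with a peak in at least 2 libraries of the mark. All groups of a mark shared 1 spread, and calls are Benjamini-Hochberg adjusted p under 0.05. The code was tested on simulated data. For siKDM5BC minus untreated 4-cell embryos, 100 genes were changed by 2000 bp and 100 by 4000 bp. The test recovered 13% and 64% of them, and 1.28% of its calls were false. A locus without a call may thus still have changed. Members and lists were chosen with earlier results of these data known. Every member is named, and of each list at most 4 called genes per comparison, those with the largest differences. Same-numbered replicates did not deviate together. Alternatives are in the closing section. The neighbourhood of LEFTY2 is not reported here.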

Additional observations from a re-analysis of the deposited data

How the results depend on the processing

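The count of loci called across 8 stages for H3K4me3 (8) stayed within 1.5 times under every alternative, at 6 to 9. The siKDM5BC count (6, all higher) was 3 with peaks of fold 3.5 or more, 3 on log2(bp + 500), 3 to 5 leaving out a library, and 4, all lower, scaled to covered length. Scaled, the siKDM5BC differences were −1732.5 bp (POU5F1), −4157.2 (SOX2), −3894.7 (NANOG chromosome 5), −8683.5 (KLF4), −4144.5 (KLF17), −3077.8 (SALL4) and −845 (LEFTY2); with −log10 q of 3 or more KLF17 gave −18.

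For 4-cell minus 2-cell (2 lower), the count was 1 with 2.5 kb windows, with no filter and with a trended robust prior, 7 with 50 kb windows, 0 with fold 3.5 or more and on log2(bp + 500), 0 to 1 leaving out a library, and turned to 4 higher with −log10 q of 3 or more and 5 higher when scaled. Turned values were −11921 bp for NANOG chromosome 5 at 50 kb. With −log10 q of 3 or more they were 2007.5 (POU5F1), 2605 (SOX2), 2737 (KLF17) and 1306.5 (NR5A2), and with fold 3.5 or more 917 (NR5A2). Scaled they were 1210.2 (POU5F1), 5624.4 (SOX2), 3731.5 (KLF17) and 2985.3 (SALL4).

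Blastocyst minus MII oocyte (5) became 8 with −log10 q of 3 or more, 3 scaled and 4 to 6 leaving out a library. Morula minus 8-cell (4, all higher) became 2 higher with 2.5 kb windows and on log2, and 1 higher with peaks under 3 kb apart joined. It was 1 higher and 1 lower scaled, and 3 to 4 leaving out a library. KLF17 turned to −406 bp at 2.5 kb and −799 scaled, and KLF4 to −5076.7 scaled. H3K4me3 blastocyst minus morula (1, lower) became 0 with 2.5 kb windows, joined peaks, on log2 and scaled. It was 2 lower with both ends joined, and 1 higher and 1 lower with fold 3.5 or more. With −log10 q of 3 or more it was 1 higher and 3 lower, and it was 1 in each repeat leaving out a library.

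H3K27me3 across 6 stages (2) became 7 at 50 kb and 2 to 3 leaving out a library. For 2-cell minus MII oocyte (2) it was 1 at 2.5 kb, 4 at 50 kb, where KLF4 gave −2976 bp, and 2 leaving out a library. For blastocyst minus morula (2) it was 6 at 50 kb, 1 with fold 3.5 or more, 2 to 3 leaving out a library, and 1, lower, when scaled (NR5A2 −2752.6 bp, KLF17 −36.0 bp). Causes were not tested. Over the repeats for single loci, 1049 values stayed called or stayed uncalled, 46 gained a call, 96 lost it and 24 turned. A turn was counted only where the main or the alternative result was called, so uncalled values that changed sign are among the 1049. The replicate number as a block gave 6, 6, 2, 5, 4 and 1 for the H3K4me3 counts in the order above and 2, 2 and 2 for H3K27me3; deviations of same-numbered libraries correlated at −0.175 to 0.252 (1 of 36 pairs of groups over 0.1) and −0.069 to 0.0921, so the numbers do not pair the libraries. Over all genes, calls for siKDM5BC minus untreated 4-cell (6465 higher, 8 lower) became 325 higher and 5954 lower when scaled, 3370 in all with fold 3.5 or more, 4056 with joined peaks, 11697 at 50 kb and 2044 without untreated 4-cell replicate 2. For 4-cell minus 2-cell (53 higher, 1815 lower) they became 5141 higher and 398 lower when scaled, 2818 higher and 2 lower with −log10 q of 3 or more, 734 in all at 2.5 kb, 6747 at 50 kb and 179 with fold 3.5 or more. For blastocyst minus MII oocyte (6759 higher, 651 lower) they became 13118 and 0 with −log10 q of 3 or more and 3561 and 1255 scaled. For H3K27me3 blastocyst minus morula (4571 higher, 5 lower) they became 1484 and 588 scaled, 1621 in all with fold 3.5 or more and 11444 at 50 kb, and for morula minus 8-cell (3352 higher, 236 lower) 556 and 690 scaled. A window at the transcription start only was not run, and H3K27me3 with −log10 q of 3 or more left no locus to test. Peak lists hold no depth, which limits what an absent peak shows.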
